A study of Mus musculus with 6 samples.

Results

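The Wnt ligands, their Frizzled receptors and their secreted modulators were followed across fibroadipogenic progenitors (FAPs) of mice. Members were the rows of the count table whose symbol starts with Wnt, Fzd, Sfrp, Dkk or Rspo followed by a number and an optional a or b, together with Frzb and Wif1. This gave 43 of 33276 genes, namely 19 Wnt ligands, 10 Frizzled receptors, 4 R-spondins, 5 genes of the Sfrp family with Frzb, and 4 Dickkopf genes with Wif1. FAPs are stromal progenitors of the muscle interstitium, able to form fibroblasts or adipocytes. All libraries came from mice labelled MCAO, for middle cerebral artery occlusion, a model of ischaemic stroke. A group of 3 libraries was labelled as FAPs from peripheral blood (circulating) and another group of 3 as FAPs from muscle, and no library without the occlusion was analysed here. Age, sex, background strain and the markers used to isolate the cells were not given in the sources used here, nor whether each library was a mouse of its own, and the p-values therefore refer to the variation among libraries, which may be technical.

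Wnt proteins are secreted, lipid-modified ligands that bind Frizzled receptors. With an Lrp5 or Lrp6 co-receptor they stabilise beta-catenin, which then acts with TCF/LEF factors on DNA, and with co-receptors such as Ror2 they act without beta-catenin, for instance on cell polarity. Sfrp proteins, Frzb and Wif1 bind the ligands outside the cell, most Dickkopf proteins act on the Lrp co-receptors, and R-spondins keep Frizzled receptors at the surface by acting on Lgr receptors and the ligases Rnf43 and Znrf3. In muscle, Wnt signals have been linked to the regeneration of fibres and to the fibrogenic and adipogenic fates of mesenchymal cells.

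Totals ran from 5522193 to 13813329 counts in circulating and from 17532558 to 23424039 in muscle libraries, and 18S ribosomal RNA, which stands under 2 symbols with the same reads, took 42.9% to 60.1% and 27.8% to 32.3% of them. Levels are in CPM, counts relative to a library size scaled by the trimmed mean of M values (TMM), and fold changes are log2, circulating minus muscle. Summed over 9 FAP markers, circulating libraries held 8255 to 10861 CPM and muscle libraries 15076 to 20781 CPM, with no marker at 0 in any library. The members of that list differed in direction: Pdgfra was at 191 to 220 CPM in circulating and 455 to 846 CPM in muscle libraries, while Dpp4 and Pi16 had positive log2 fold changes, 2.26 and 1.47. Summed over 9 leukocyte markers, circulating libraries held 93.5 to 121 CPM and muscle libraries 16.8 to 32.2 CPM. The sum of 5 markers of pericytes and smooth muscle was 48.3 to 55.5 CPM in circulating and 67.8 to 135 CPM in muscle libraries. Its markers differed in direction too. Rgs5 (-3.00), Notch3 (-1.50) and Cspg4 (-1.29) had negative log2 fold changes, and Myh11 (1.85) and Acta2 (0.85) positive ones. Notch3, Myh11 and Acta2 overlapped between the groups. The sum of 5 tenocyte markers was 349 to 526 CPM in circulating and 245 to 308 CPM in muscle libraries. Most of the tenocyte sum was Fmod and Thbs4, and these 5 markers also differed in direction. Tnmd (-1.57) and Scx (-1.24) had negative log2 fold changes, Scx with overlap between the groups. Mkx (3.01), Fmod (1.22) and Thbs4 (0.66) had positive ones, and all circulating libraries lay above all muscle libraries in Mkx. Sums for endothelial cells, satellite cells, muscle fibres, Schwann cells, and platelets with red cells overlapped between the groups. Among the leukocyte markers none was at 0 in any library, while Myod1 of satellite cells, Sox10 of Schwann cells and Cldn5 of endothelial cells were at 0 in at least 1 library. The part of other cells in the results that follow was not tested, and in bulk RNA fewer cells of a type and less RNA per cell cannot be told apart.

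No member passed the threshold of 0.05 on adjusted p-values in edgeR's quasi-likelihood test, in which 22 of 20248 genes (0.109%) passed. Of the 43 members 31 passed the filter on low counts and were tested. At an unadjusted p under 0.05, 8 of the 31 were lower in circulating FAPs (25.8%, against 9.64% of all tested genes) and 1 was higher (3.23%, against 9.69%). The split was 4 lower and 7 higher when scaled on abundant genes (those of at least 20 CPM), where 3.12% of all genes were lower and 26.3% higher. It was also 4 and 7 on the upper quartile (3.32% and 26.1% of all genes), and 7 and 2 by library size alone (7.56% and 9.74%). With DESeq2, 4 members were lower at an adjusted p under 0.05, Dkk3, Sfrp1, Fzd1 and Wnt11 (12.9%, against 5.32% of all genes), and none was higher (1.01% of all genes). DESeq2 gave no adjusted p for Dkk1, Frzb, Rspo3, Wnt2b, Wnt4, Wnt7a, Wnt8a, Wnt8b, Wnt9a and Wnt9b, which could not be called. Wnt4 had an unadjusted p = 0.00075 in DESeq2. All 3 circulating libraries lay below all 3 muscle libraries in 7 tested members (22.6%, against 11.4% of all genes) and above them in 4 (12.9%, against 16.2%). The median log2 fold change was -0.19 over the 31 members and 0.15 over all tested genes.

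Fold changes were more negative at higher abundance over all genes, with a median of 0.77 for genes under 2 CPM and -0.65 for genes of at least 20 CPM. The members followed the same order, at 0.72 for the 9 members under 2 CPM, -0.19 for the 13 between, and -1.52 for the 9 of at least 20 CPM. Among these 9, 6 (66.7%) were lower at an unadjusted p under 0.05, against 21.8% of the 4750 genes of like average abundance. All circulating libraries lay below all muscle libraries in 5 (55.6%), against 28.8%. The bin is set by the average over both groups, and Dkk3 and Sfrp1 entered it through their muscle libraries. Their means were 2.08 and 2.25 CPM in circulating and 38.5 and 39.9 CPM in muscle FAPs. When scaling factors were taken from genes of at least 20 CPM only (scaling on abundant genes), the median of all genes went from 0.15 to 0.85 and that of the members from -0.19 to 0.48, so signs of small fold changes depend on the scaling. Dkk3, Sfrp1, Wnt4, Fzd1, Wnt11, Fzd4, Wnt5a and Dkk2 had a negative log2 fold change under every scaling tried.

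**Figure D1:**
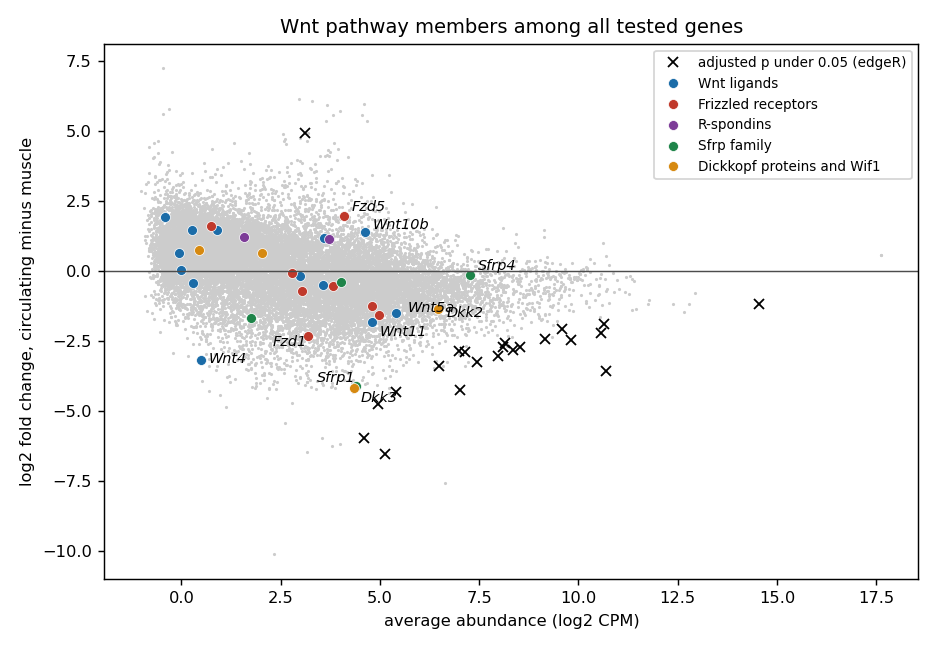
Average abundance (log2 CPM) against log2 fold change, circulating minus muscle, for all 20248 tested genes (grey), the 22 genes past the threshold (crosses) and the 31 tested members (coloured by role). No member carries a cross; Dkk3 at -4.19 and Sfrp1 at -4.14 lie lowest among the members.

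Many members were at or near the level of stray reads. The background of a library was the median, in reads per kilobase of exon, over 389 chemosensory receptor genes (Vmn1r, Vmn2r, Tas1r, Tas2r and Taar), which are known mainly from sensory organs. It was higher in circulating libraries, at 0.423 to 0.524 CPM per kilobase, than in muscle libraries, at 0.214 to 0.282. In all 3 libraries of a group, 14 members (32.6%) reached 3 times the background in muscle FAPs and 7 (16.3%) in circulating FAPs. Of all 30434 genes with an exon length, 26.4% and 15.6% did, so a lower count in circulating FAPs was shared by genes at large and is no result about the members. Of the 7 circulating members, Dkk2, Sfrp2, Sfrp4, Wnt11 and Wnt5a were also among the 14, and the others were Wnt10b and Wnt2. The 9 muscle members without a circulating counterpart were Dkk3, Fzd1, Fzd2, Fzd4, Fzd7, Fzd8, Rspo3, Sfrp1 and Wnt9a. By role, 5 Frizzled receptors reached this level in muscle and 0 in circulating FAPs, while 3 and 4 Wnt ligands did. The 0 depended on single libraries: without circulating replicate 2, the shallowest, Fzd2 and Fzd4 reached it, and without circulating replicate 3, Fzd7 did. The circulating libraries were shallower, and 1 read in them was worth 0.0727 to 0.133 CPM, against 0.0487 to 0.0595 CPM in muscle. Fzd5, Fzd6, Rspo3, Sfrp2, Wnt11, Wnt5a and Wnt7b share exonic bases with a gene on the opposite strand, and whether counting used strand is not given, so reads of both cannot be told apart there.

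**Figure D2:**
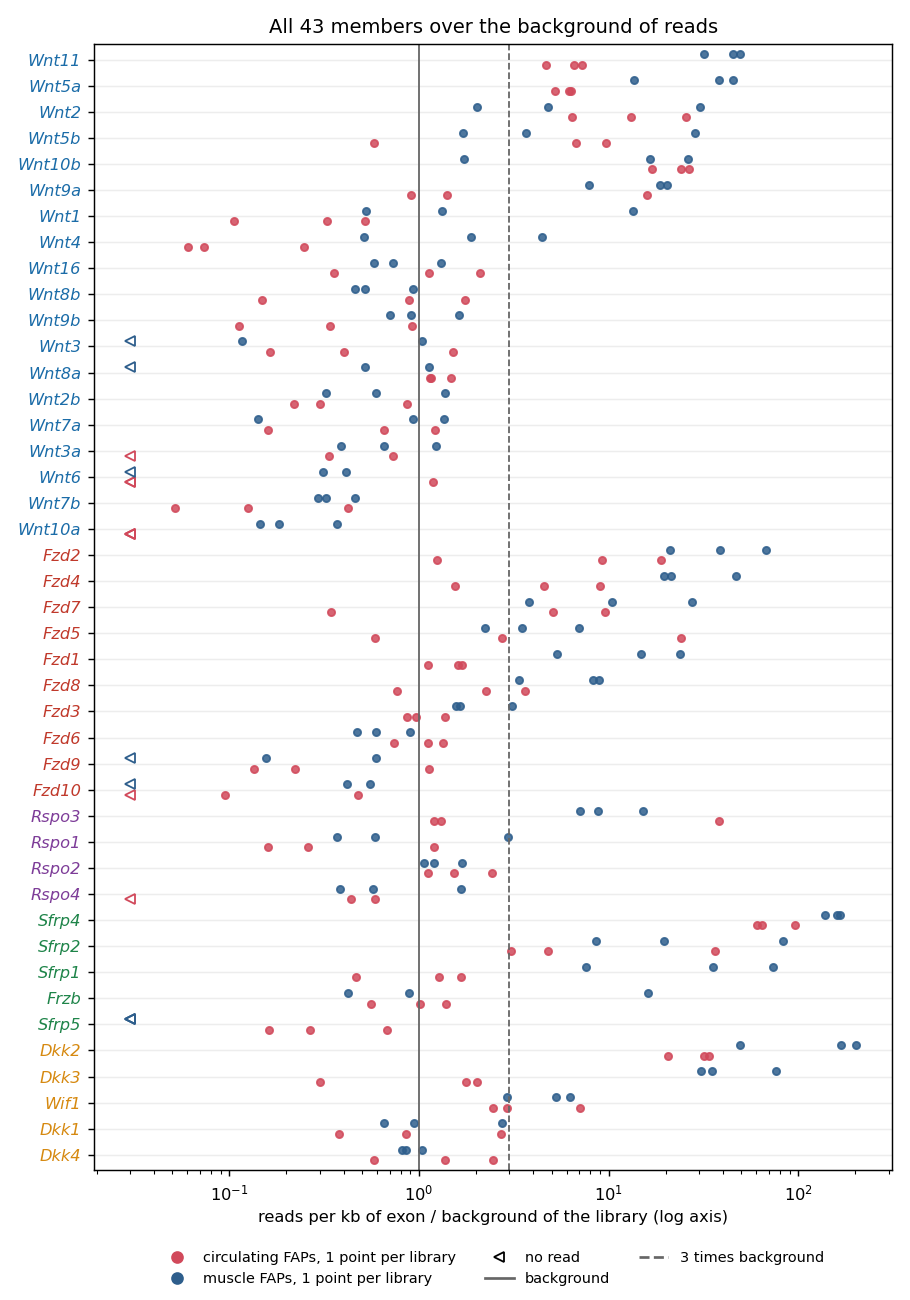
Reads per kilobase of exon divided by the background of the same library (log axis) for all 43 members, 1 point per library, with open triangles for libraries without a read. Sfrp4 lies at 60.6 to 166 times the background in all 6 libraries, and most Wnt ligands lie around the line of 1.

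Compared per kilobase of exon, Sfrp4 and then Dkk2, both encoding secreted inhibitors, had the highest mean level in either group. In muscle FAPs, at 39.3 ± 6.60 and 34.4 ± 19.7 CPM per kilobase (SD, n = 3), their order lay within the spread, and Dkk2 was above Sfrp4 in muscle replicates 1 and 3. In muscle FAPs Dkk3, Fzd2 and Wnt11 came next, at 11.5 ± 4.35, 10.7 ± 6.28 and 10.5 ± 1.48 CPM per kilobase (SD, n = 3), and these 3 levels did not differ beyond their spread. In circulating FAPs the ligands Wnt10b and Wnt2 came next, at 10.5 ± 1.39 and 7.32 ± 5.41 CPM per kilobase. Dkk3 was at only 0.620 ± 0.413 CPM per kilobase in circulating FAPs.

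Among the ligands, Wnt11 and Wnt5a, which act mainly without beta-catenin, had the highest levels in muscle FAPs. Wnt11 was at 9.09, 15.6 and 11.5 CPM in circulating replicates 1, 2 and 3 and at 49.2, 37.0 and 43.7 CPM in muscle replicates 1, 2 and 3. Every circulating library lay below every muscle library, and the log2 fold change was -1.84 ± 0.59 (SE), with adjusted p = 0.178 in edgeR and adjusted p = 0.00965 in DESeq2. Wnt5a was at 19.2, 25.9 and 20.6 CPM in circulating and 27.9, 84.6 and 75.8 CPM in muscle libraries. The groups again did not overlap, although muscle replicate 1 lay near the circulating libraries (-1.52 ± 0.59, adjusted p = 0.217 in edgeR). With cyclic loess normalization, which removes the trend with abundance, the Wnt5a value was -0.62.

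Wnt4, a ligand known from kidney and reproductive tract development, was at 0.145, 0.133 and 0.438 CPM in circulating FAPs, which is 2, 1 and 4 reads. In muscle FAPs it was at 2.08, 0.608 and 3.99 CPM, from 35, 12 and 82 reads. The groups did not overlap (-3.20 ± 0.87, adjusted p = 0.154 in edgeR), but in muscle replicates 1 and 2 the level was only 1.89 and 0.513 times the background.

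Wnt10b, a ligand known to restrain adipogenesis, showed the reverse order. Its level was 38.8, 30.2 and 38.0 CPM in circulating and 23.6, 15.9 and 1.27 CPM in muscle libraries. All circulating libraries lay above all muscle libraries, with muscle replicate 3 far below the other two (1.39 ± 0.88, adjusted p = 0.390 in edgeR). The value was 0.80 without muscle replicate 3 (adjusted p = 0.600), 2.01 without muscle replicate 1 (adjusted p = 0.370) and 2.81 with cyclic loess (adjusted p = 0.363 in limma). Over the background of each library, Wnt10b was at 24.2, 17.0 and 26.4 times in circulating and 26.3, 16.6 and 1.74 times in muscle FAPs, and on that scale the groups overlapped. Wnt2 was at 6.84, 30.2 and 12.5 CPM in circulating and 17.9, 3.04 and 0.974 CPM in muscle libraries (1.17 ± 1.03, adjusted p = 0.520 in edgeR). Muscle replicate 1 lay inside the circulating range. With a library left out the value ran from 0.32 without circulating replicate 2 (adjusted p = 0.904) to 2.98 without muscle replicate 1 (adjusted p = 0.270), and was 0.58 without muscle replicate 3.

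Wnt9a was uneven within the circulating group, at 25.0, 1.59 and 1.97 CPM, beside 17.7, 17.6 and 5.60 CPM in muscle libraries. Circulating replicate 1 lay above all muscle libraries and the other two below them, so the log2 fold change of -0.51 ± 1.04 (adjusted p = 0.792 in edgeR) became -2.99 without that library (adjusted p = 0.181). Wnt5b, a close relative of Wnt5a, ran from 0.727 to 13.5 CPM in circulating and from 1.19 to 21.5 CPM in muscle libraries. Wnt1 reached 6.87 CPM in muscle replicate 3, or 141 reads, and was at or under 0.833 CPM in the 5 other libraries. The remaining 11 ligands, Wnt2b, Wnt3, Wnt3a, Wnt6, Wnt7a, Wnt7b, Wnt8a, Wnt8b, Wnt9b, Wnt10a and Wnt16, stayed under 5 CPM in every library. None of these 11 reached 3 times the background in any library. Wnt10a had no read in circulating libraries, which allows up to 0.218, 0.398 and 0.328 CPM at 3 reads, and 2, 2 and 4 reads in muscle libraries.

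The promoters of Wnt11 and Fzd1, both lower in circulating FAPs with DESeq2, and of Wnt10b, which had the reverse order, show how these members are built at their start. RefSeq windows (build GRCm38.p6, from 250 bases before to 50 bases after the start) were at hand for 29 of the 43 members, and those of Dkk3 and Sfrp1 were not used here. Each is printed 5′ to 3′ on the strand of its gene, with the TCF/LEF core CTTTGA, or its reverse complement, in capitals.
Wnt11, chr7:98834862-98835161, plus strand: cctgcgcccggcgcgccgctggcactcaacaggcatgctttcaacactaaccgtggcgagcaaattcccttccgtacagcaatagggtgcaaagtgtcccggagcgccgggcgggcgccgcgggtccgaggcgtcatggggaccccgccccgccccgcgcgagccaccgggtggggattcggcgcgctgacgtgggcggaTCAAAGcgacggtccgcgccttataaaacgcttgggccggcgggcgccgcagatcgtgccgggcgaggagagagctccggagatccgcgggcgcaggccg
Fzd1, chr5:4758167-4758466, minus strand: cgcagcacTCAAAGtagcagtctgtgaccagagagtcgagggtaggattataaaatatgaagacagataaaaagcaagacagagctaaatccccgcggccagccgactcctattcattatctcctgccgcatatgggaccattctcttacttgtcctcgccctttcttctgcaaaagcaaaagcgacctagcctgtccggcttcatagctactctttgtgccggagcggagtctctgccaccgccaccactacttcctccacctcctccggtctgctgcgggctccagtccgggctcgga
Wnt10b, chr15:98778101-98778400, minus strand: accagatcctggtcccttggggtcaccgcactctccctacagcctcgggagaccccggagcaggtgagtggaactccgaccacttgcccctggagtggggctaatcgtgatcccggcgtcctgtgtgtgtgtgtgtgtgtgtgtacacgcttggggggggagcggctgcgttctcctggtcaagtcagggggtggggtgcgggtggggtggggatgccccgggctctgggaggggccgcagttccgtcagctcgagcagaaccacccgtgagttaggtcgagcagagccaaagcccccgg
The Wnt11 window, the upstream one of 2 starts of this gene, held 1 core, on the reverse strand and beginning at position -50, close to a TATAAA box. The Fzd1 window held 1 core, also on the reverse strand, at position -242. Its TATAAA match lay in the upstream part of the window as well, far from the start, unlike that of Wnt11. The Wnt10b window held neither the core nor TATAAA. Searched on both strands, CTTTGA stood in 5 of 32 member windows and in 16% of all 32851 windows, and TATAAA in 5 of 32 and in 13.6%. The GC box GGGCGG stood in 24 of 32 member windows, against 35.7% of all, and the median number of CG dinucleotides was 26.5 per window, against 7. A match describes the sequence only, and Wnt11 and Wnt5b enter with more than 1 start.

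Frizzled genes encode the receptors that span the membrane and bind the ligands. A negative log2 fold change was found in 6 of the 8 tested, beside 9213 of all 20248 tested genes. With scaling on abundant genes 4 had one, beside 5323 of all tested genes. Fzd4, which binds Norrin as well as Wnt ligands, was at 28.5, 5.44 and 12.9 CPM in circulating and 34.6, 40.5 and 67.4 CPM in muscle libraries. All circulating libraries lay below all muscle libraries (-1.60 ± 0.71, adjusted p = 0.255 in edgeR), and the value without circulating replicate 1 was -2.43. Fzd1 was at 3.20, 3.71 and 1.97 CPM in circulating and 5.89, 17.5 and 21.5 CPM in muscle libraries. It did not overlap either (-2.34 ± 0.73, adjusted p = 0.178 in edgeR, 0.00942 in DESeq2), and in circulating FAPs it was only 1.11 to 1.69 times the background.

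Fzd2, the receptor with the highest mean per kilobase in either group, was at 32.5, 2.39 and 14.3 CPM in circulating and 65.2, 21.8 and 30.3 CPM in muscle libraries. The groups overlapped through circulating replicate 1 (-1.25 ± 0.88, adjusted p = 0.429 in edgeR). Per kilobase, Fzd2 led the receptors only in replicate 1 of each group. Fzd7 was highest in replicate 2 of both groups, Fzd5 in circulating replicate 3 and Fzd4 in muscle replicate 3. Fzd7, the receptor through which Wnt7a is known to act on satellite cells, was at 10.8, 22.7 and 0.657 CPM in circulating and 4.52, 35.2 and 10.2 CPM in muscle libraries. The groups overlapped (-0.55 ± 1.10, adjusted p = 0.787 in edgeR), with circulating replicate 3 below all muscle libraries and muscle replicate 2 above all circulating libraries. Fzd8 ran from 2.39 to 10.2 CPM in circulating and from 5.67 to 13.0 CPM in muscle libraries (-0.72 ± 0.71, adjusted p = 0.573 in edgeR).

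Fzd5 was at 8.94, 2.12 and 70.0 CPM in circulating and 6.37, 4.35 and 10.4 CPM in muscle libraries. Circulating replicate 3 alone stood high, with 640 reads, and the log2 fold change of 1.94 ± 1.09 (adjusted p = 0.338 in edgeR) became -0.46 without it. Fzd6 was the member higher at an unadjusted p under 0.05, at 2.55, 1.86 and 2.74 CPM in circulating and 0.595, 0.810 and 0.925 CPM in muscle libraries (1.60 ± 0.52, adjusted p = 0.180 in edgeR). Over the background it was at 0.735 to 1.34 times in circulating and 0.469 to 0.896 times in muscle libraries, so Fzd6 did not stand above stray reads in either group. Fzd3 ran from 4.53 to 11.1 CPM over all libraries, and Fzd9 and Fzd10 stayed at or under 1.09 CPM.

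**Figure D3:**
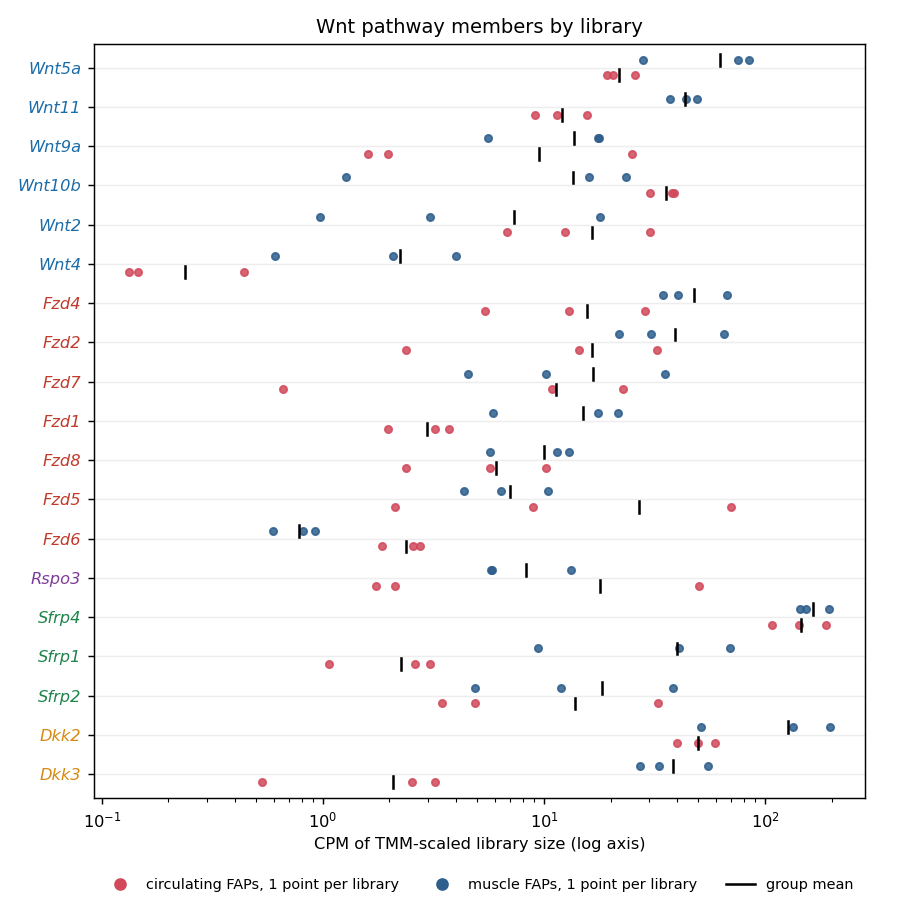
CPM (log axis) of the 19 members with a mean of at least 10 CPM in either group or an unadjusted p under 0.05, 1 point per library, with the group mean as a bar. Wnt11, Dkk3 and Sfrp1 are split cleanly between the groups, whereas single circulating libraries stand apart in Fzd5 at 70.0 CPM and Rspo3 at 50.0 CPM.

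R-spondins amplify Wnt signals. Rspo3 had the highest mean per kilobase among them in either group, but in circulating FAPs that mean rested on replicate 3, and in circulating replicate 2 Rspo2 was above it, at 0.804 against 0.687 CPM per kilobase. Rspo3 was at 1.75, 2.12 and 50.0 CPM in circulating and 5.77, 13.3 and 5.80 CPM in muscle libraries. Circulating replicates 1 and 2 lay below all muscle libraries and circulating replicate 3 above them, and the log2 fold change of 1.12 ± 1.16 (adjusted p = 0.592 in edgeR) became -2.20 without that library (adjusted p = 0.278). Rspo2 was at 2.69, 4.11 and 5.25 CPM in circulating and 1.61, 2.43 and 1.17 CPM in muscle libraries, without overlap (1.20 ± 0.55, adjusted p = 0.260 in edgeR). Over the background of each library it was at 1.115 to 2.43 times in circulating and 1.07 to 1.68 times in muscle libraries. On that scale the groups overlapped, and Rspo2 did not reach 3 times the background in any library. Rspo1 and Rspo4 stayed at or under 1.22 CPM.

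The secreted inhibitors held both the most abundant members and the members with the most negative fold changes. Sfrp4 was at 189, 142 and 107 CPM in circulating and 153, 196 and 144 CPM in muscle libraries. The groups overlapped (-0.17 ± 0.39, adjusted p = 0.818 in edgeR), and the value was positive with cyclic loess (0.58), on the upper quartile (0.48) and when scaled on abundant genes (0.50). Of the summed level per kilobase of the Sfrp family, Sfrp4 made up 82.2% ± 18.5 in circulating and 68.6% ± 17.5 in muscle FAPs (SD, n = 3).

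Sfrp1 was at 2.62, 1.06 and 3.06 CPM in circulating and 41.0, 9.42 and 69.3 CPM in muscle libraries, from 36, 8 and 28 reads against 689, 186 and 1423. The groups did not overlap, and the log2 fold change was -4.14 ± 0.90 with adjusted p = 0.118 in edgeR and adjusted p = 2.53e-05 in DESeq2. In circulating FAPs Sfrp1 stood at 0.463 to 1.66 times the background and in muscle FAPs at 7.63 to 73.9 times. Sfrp2 was at 4.87, 3.45 and 32.9 CPM in circulating and 4.88, 11.9 and 38.2 CPM in muscle libraries, a like spread in both groups (-0.42 ± 1.02, adjusted p = 0.829 in edgeR). Frzb, which encodes a further Wnt-binding protein, was high in muscle replicate 1 alone, at 13.7 CPM against 0.292 to 2.11 CPM in the 5 other libraries. Sfrp5 had 2, 2 and 5 reads in circulating libraries and none in muscle libraries, which allows up to 0.179, 0.152 and 0.146 CPM at 3 reads.

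Dkk3, an atypical Dickkopf protein that does not bind the Lrp co-receptors as its relatives do, had the most negative fold change of the tested members. It was at 3.20, 0.530 and 2.52 CPM in circulating and 27.3, 33.2 and 55.0 CPM in muscle libraries, from 44, 4 and 23 reads against 459, 655 and 1130. Every circulating library lay far below every muscle library (-4.19 ± 0.84), with adjusted p = 0.0909 in edgeR and adjusted p = 1.07e-06 in DESeq2. The level was 0.301 to 2.02 times the background in circulating and 30.9 to 76.4 times in muscle FAPs. Without the filter on low counts, edgeR gave adjusted p = 0.0300 for Dkk3 and adjusted p = 0.0394 for Sfrp1.

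Dkk2 was at 59.3, 40.0 and 49.9 CPM in circulating and 197, 51.5 and 133 CPM in muscle libraries. Muscle replicate 2 lay inside the circulating range (-1.36 ± 0.55, adjusted p = 0.226 in edgeR), and the value with cyclic loess was -0.38. Unlike Dkk3 it remained well above stray reads in circulating FAPs, at 20.6 to 33.9 times the background. Dkk2 made up 77.7% ± 4.80 of the summed level per kilobase of the Dickkopf genes and Wif1 in circulating and 68.0% ± 16.0 in muscle FAPs, and Dkk3 3.38% ± 1.97 and 26.9% ± 12.6 (SD, n = 3). Wif1 was at 2.52 to 8.07 CPM in circulating and 1.51 to 4.30 CPM in muscle libraries (0.64 ± 0.65, adjusted p = 0.579 in edgeR). Dkk1 stayed at or under 3.45 CPM and Dkk4 at or under 1.53 CPM.

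**Figure D4:**
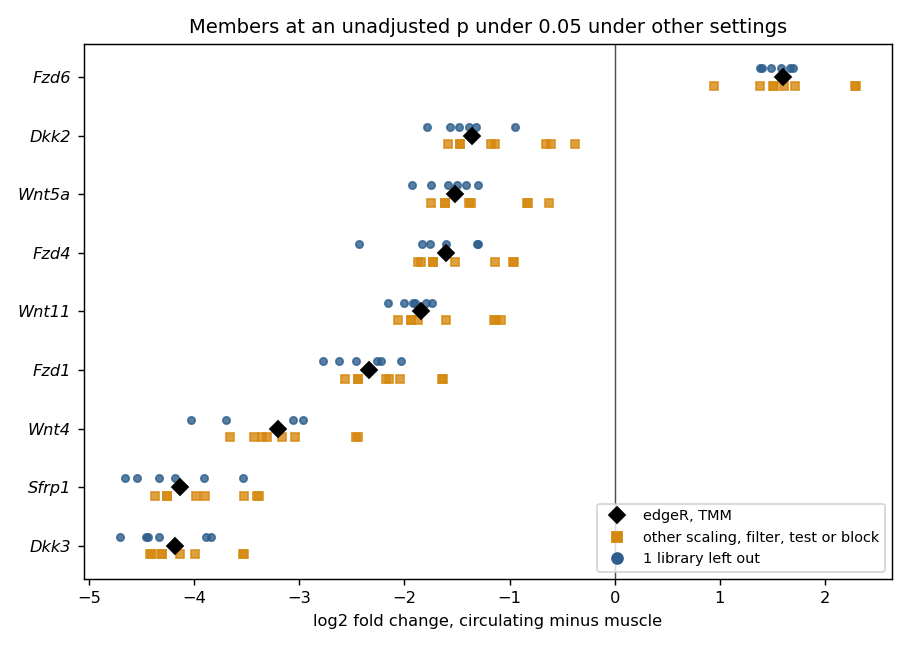
Log2 fold change, circulating minus muscle, of the 9 members at an unadjusted p under 0.05 with TMM scaling (diamonds), under 8 other scalings, filters, tests or a block (squares) and with 1 library left out (circles). Dkk3 stayed between -3.53 and -4.70 and Sfrp1 between -3.39 and -4.66, while Dkk2 reached -0.38.

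The other genes of the pathway were taken from 6 lists with 74 genes, 68 of them tested. None passed over all genes in edgeR (0.109% of all genes did); at an unadjusted p under 0.05, 10 were lower (14.7%, against 9.64% of all genes) and 2 higher (2.94%, against 9.69%). With DESeq2, 6 were lower (8.82%, against 5.32%) and none higher (1.01% of all genes), but some, such as Cthrc1 and Axin2, had no adjusted p there. The median log2 fold change was -0.46, against 0.15 for all tested genes, and 0.32 with scaling on abundant genes, against 0.85. These comparisons were not matched for abundance: the 68 genes had a median of 3.84 log2 CPM, against 2.23 for all tested genes.

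Genes of the planar polarity branch, which acts without beta-catenin, had the lowest median, -0.90 over 11 tested genes, or -0.13 with scaling on abundant genes. At an unadjusted p under 0.05, 4 were lower (36.4%, against 9.64% of all genes) and none higher (9.69% of all genes). Vangl1, a membrane protein of this branch, was at 8.80, 5.83 and 7.11 CPM in circulating and 44.5, 36.1 and 30.5 CPM in muscle libraries, without overlap (-2.35 ± 0.62, adjusted p = 0.147 in edgeR). The formins Daam1 (-1.45 ± 0.56) and Daam2 (-2.15 ± 0.75) and the scaffold Prickle1 (-1.84 ± 0.71) were the 3 others, with adjusted p = 0.213, 0.195 and 0.216 in edgeR. Vangl1, Daam2 and Prickle1 passed with DESeq2 (adjusted p = 0.000364, 0.0246 and 0.0438).

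Among 16 genes of the destruction complex and Dishevelled, 3 were lower at an unadjusted p under 0.05 (18.8%, against 9.64% of all genes). This list was abundant, at a median of 5.07 log2 CPM against 2.23 for all tested genes. Of genes of at least 20 CPM 21.8% were lower, so the 18.8% is no excess at such abundance. The median of this list turned from -0.26 to 0.44 with scaling on abundant genes. Ctnnb1, which encodes beta-catenin, was at 3.20, 4.77 and 4.60 CPM in circulating and 36.2, 9.22 and 25.8 CPM in muscle libraries, without overlap (-2.50 ± 0.73, adjusted p = 0.169 in edgeR, 0.00457 in DESeq2). In circulating libraries Ctnnb1 was only 1.31 to 2.09 times the background, and in muscle libraries 6.29 to 26.5 times. The casein kinase Csnk1a1 (-1.63 ± 0.45, adjusted p = 0.156 in edgeR) and the tankyrase Tnks2 (-1.29 ± 0.51, adjusted p = 0.217 in edgeR) were the others. Wls, which carries Wnt ligands to the cell surface, was at 34.8, 20.9 and 31.0 CPM in circulating and 71.7, 80.5 and 82.4 CPM in muscle libraries (-1.43 ± 0.50, adjusted p = 0.194 in edgeR, 0.0391 in DESeq2). Cthrc1, a secreted protein that can bind Wnt ligands, was at 126, 2.92 and 6.57 CPM in circulating and 1.37, 1.37 and 0.0974 CPM in muscle libraries, high in circulating replicate 1 (5.58 ± 1.55, adjusted p = 0.156 in edgeR).

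Of 12 tested co-receptors and receptor turnover genes 1 was higher at an unadjusted p under 0.05, the R-spondin receptor Lgr6 (1.42 ± 0.57, adjusted p = 0.225 in edgeR). That is 8.33%, near the 9.69% of all genes, and Lgr6 was at 0.929 to 2.22 times the background over all libraries. Lrp6 was at 73.1, 14.6 and 24.8 CPM in circulating and 130, 52.5 and 115 CPM in muscle libraries, with overlap (-1.40 ± 0.67, adjusted p = 0.281 in edgeR). Of 15 nuclear partners of beta-catenin, Tcf7l2 alone was lower by that threshold (6.67%, against 9.64% of all genes), at -1.15 ± 0.51 (adjusted p = 0.251 in edgeR). The 15 tested beta-catenin target genes had a median of 0.00065, and 0.65 when scaled on abundant genes. Of them 8 had positive and 7 negative values, beside 11035 and 9213 of all tested genes. Myc was the target at an unadjusted p under 0.05 (6.67%, against 9.64% of all genes), at 171, 215 and 193 CPM in circulating and 379, 423 and 413 CPM in muscle libraries (-1.07 ± 0.32, adjusted p = 0.171 in edgeR). Myc also responds to many signals other than Wnt.

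**Figure D5:**
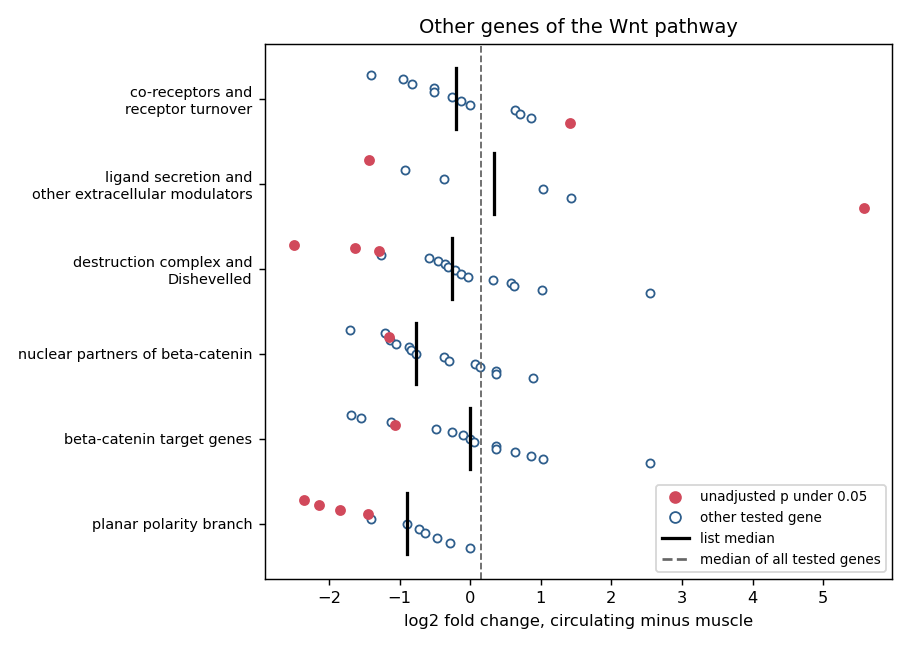
Log2 fold change, circulating minus muscle, of each tested gene in 6 lists of the Wnt pathway, with filled points at an unadjusted p under 0.05, the median of each list as a bar and the median of all tested genes as a dashed line. The planar polarity list lies lowest, at a median of -0.90, and some genes stand in more than 1 list.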

How the data were processed

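RNA-seq read counts, not normalized, were deposited by the authors as 1 table with a row for each gene symbol and a column for each of 6 libraries. The mouse build GRCm39, featureCounts, STAR and Trim Galore are named, per the submitters' processing notes; versions, strand handling and annotation are not given in the sources used here. Per the labels, libraries were made with a transposase kit. In GENCODE M21, 7 members (Fzd5, Fzd6, Rspo3, Sfrp2, Wnt11, Wnt5a and Wnt7b) share exonic bases with a gene on the opposite strand, whose reads cannot be told apart without strand.

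Counts were tested with edgeR 4.0.16 in R 4.3.3 (robust quasi-likelihood F test, TMM scaling, default filterByExpr filter, 20248 genes left), with Benjamini-Hochberg adjustment over all tested genes. The standard error is the coefficient over the square root of F. The steps were tested on simulated counts. DESeq2 1.42.0 and limma 3.58.1 served as alternatives. Exon lengths came from GENCODE M21 (GRCm38), matched by symbol for 91.5% of symbols, all 43 members among them. Replicates were grouped by their titles.

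The members and gene lists were chosen with earlier results of these data known. Members named with all values had a mean of at least 10 CPM in either group or an unadjusted p under 0.05; pathway lists gave up to 5 genes at an unadjusted p under 0.05, or else the most abundant. Lrp6, Frzb, single marker genes and low members outside this rule, were named after their values were seen. Limits for a count of 0 use 3 reads and cover counting error only.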

Additional observations from a re-analysis of the deposited data

How the results depend on the processing

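The count of 22 genes past the threshold became 43 with RLE size factors, 2 with upper quartile scaling, 7 with scaling on abundant genes, 160 without a filter, 1282 with DESeq2, 5 with limma-voom and cyclic loess, 1 with the replicate block, and 0 (without muscle replicate 3) to 65 (without circulating replicate 1) with a library left out. The count of members past it, 0 in edgeR, became 2 without a filter (Dkk3 and Sfrp1) and 4 with DESeq2, and was 0 under the other alternatives. Members at an unadjusted p under 0.05 numbered 6 to 12 in all alternatives, against 9. The members' median of -0.19 turned to 0.45 with upper quartile scaling and 0.48 with scaling on abundant genes, and ran from -0.46 (without circulating replicate 3) to 0.20 (without muscle replicate 2). The causes were not tested.

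Of 264 recomputed fold changes of 19 members, 15 turned sign. With upper quartile scaling Fzd7 was at 0.092, Sfrp2 at 0.35, Sfrp4 at 0.48 and Wnt9a at 0.017, and with scaling on abundant genes at 0.12, 0.34, 0.50 and 0.0027. With cyclic loess Rspo3 was at -0.24 and Sfrp4 at 0.58. With a library left out, Fzd5 ran from -0.46 to 2.42, Fzd7 from -1.63 to 0.57, Rspo3 from -2.20 to 1.60 and Sfrp2 from -2.26 to 0.66. Wnt4 fell under the filter without muscle replicate 1 or 3 and gave no value there.

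Nothing in the labels said whether replicate numbers pair the samples. Deviations from the group means correlated at 0.0081, 0.041 and 0.0058 between libraries of the same number. Over all pairs of a circulating and a muscle library they ran from -0.052 to 0.041, and not every library correlated best with its own number. With 3 libraries per group these values cannot decide whether the samples were paired. With the replicate block Rspo3 was at -0.73. Members above 3 times the background, 7 in circulating and 14 in muscle FAPs, were 5 and 12 at 5 times, 8 and 17 at 2 times, and 8 to 9 and 15 to 17 with a library of the group left out, an alternative added, as was the same count by role, after seeing the data. Depth limits members of a few reads, such as Wnt4, Sfrp5 and Wnt10a, most of all in circulating replicate 2.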
